A study of Drosophila melanogaster with 12 samples.

Results

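The set described here comprised 836 small RNA sequences that were bound to Piwi in OSC, a cultured line of Drosophila melanogaster ovarian somatic cells. Its members were chosen by length and abundance in the myc-Piwi library of OSC, as every listed sequence of 23 to 29 nt that shared no run of 15 nt with 2S rRNA, a small ribosomal RNA that runs with piRNAs on a gel. They were 836 of the 860 sequences listed in that library, and 836 of 84000 distinct sequences of this kind over all 12 libraries. Each member was then followed through the 9 ovary libraries and the 2 other OSC libraries, first by its identical sequence and then by any listed sequence with the same first 20 nt. Members are called by their rank in myc-Piwi reads, so that member 1 had the most reads.

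The libraries came from adult ovaries of 4 genotypes and from OSC. For krimp heterozygous ovaries, the control, there were libraries of total small RNA and of RNA purified with Piwi, Aub and AGO3. For krimp mutant ovaries there were libraries of total, Piwi and Aub. AGO3 libraries were also made from aub mutant ovaries and from the wild-type strain Oregon R. All 3 OSC libraries came from cells with krimp knocked down. These cells ectopically expressed Piwi, Aub or AGO3 with a myc tag. The myc-Piwi protein was purified with an antibody to myc, and the other 2 with antibodies to Aub and AGO3. OSC is 1 cell line, and no OSC library without the knockdown was analysed here. Each group had 1 library, so differences could not be checked against replicates and no p-values were computed.

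piRNAs are small RNAs that guide Piwi-family proteins to transposon transcripts. In the somatic follicle cells that surround the Drosophila germ cells, Piwi works without Aub and AGO3, and its piRNAs are cut from long single-stranded precursors, many with U at the 5′ end. In germ cells all 3 proteins are made, and Aub and AGO3 can amplify piRNAs by cutting sense and antisense transcripts in turn (ping-pong), which leaves partner piRNAs whose 5′ ends overlap by 10 nt. Krimper is a germline protein of the nuage, the perinuclear granule where Aub and AGO3 meet.

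The lowest listed count was 100 reads, and an unlisted sequence may have had anything from 0 to 99. Levels are given in RPM, which are reads per 1000000 of the listed 23 to 29 nt reads without 2S rRNA. These reads numbered 16847260 in the heterozygous and 11468371 in the mutant Piwi library, and 13426396 and 9918154 in the 2 total libraries. The OSC libraries were far smaller, with 148941 reads for myc-Piwi, 104466 for myc-Aub and 125189 for myc-AGO3. An unlisted sequence could therefore reach 5.88 RPM in heterozygous Piwi and 8.63 in mutant Piwi, but 75.4 in heterozygous Aub and 948 in myc-Aub. Some libraries stood apart by their content of 2S rRNA, which made up 66.3% of listed reads in heterozygous Aub, 53.8% in mutant Aub, 83.0% in Oregon R AGO3 and 93.7% in aub mutant AGO3. It also differed between the compared Piwi libraries, at 7.73% in the heterozygous and 24.5% in the mutant. The mutant Aub library is labelled mutant in its title and genotype but also control in its source name, and is used as mutant. Intervals are exact Clopper-Pearson 95% intervals. They cover counting error only and are too narrow for reads copied by PCR without molecular identifiers.

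The myc-Piwi reads of the members, which chose them, ran from 100 to 1172 with a median of 140, and 13 members stood at exactly 100. The set was not dominated by a few sequences, since the 10 most abundant members held 6.14% of its reads and the 100 most abundant held 28.6%. Just outside the limits lay 14 sequences of 30 nt with 105 to 426 reads, 7 sequences shorter than 23 nt with 113 to 375 reads, and 3 sequences that matched 2S rRNA with 180 to 1286 reads. Just inside them lay 41 members of 29 nt with 100 to 1172 reads and 4 members of 23 nt with 101 to 144 reads. Many members came from the same places. The 836 members had 745 different starts of 20 nt, and joining members that share 18 nt with one another, on the same strand, directly or through other ovary Piwi or OSC sequences, gave 512 groups, of which 342 held a single member and the largest held 13.

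The base composition, which the rule did not use, had the usual marks of Piwi-bound piRNAs. U stood at position 1, counted from the 5′ end, in 91.5% of members (95% interval 89.4 to 93.3), against 79.2% of the other sequences of the heterozygous Piwi library. A stood at position 10 in 24.8% of members (21.9 to 27.8), against 27.4% of those others and 71.4% of the other heterozygous AGO3 sequences. Members were most often 26 nt long, with a mean of 26.5 nt, and U made up 33.0% of all their bases, against 27.8% in the other heterozygous Piwi sequences. The base that followed the 3′ end could be read for 550 members from longer or shifted listed sequences. It was U in 68.9% of them (64.9 to 72.8), against 52.8% of the other heterozygous Piwi sequences, 39.3% of the other Aub and 31.2% of the other AGO3 sequences. Among the other mutant Piwi sequences the shares were 76.3% for U at position 1 and 57.7% for U after the 3′ end. Both were thus more frequent among the members than among the other Piwi-bound sequences. The intervals treat members as independent, although many overlap. The lists also start at unlike levels, since an unlisted sequence could reach 665 RPM in myc-Piwi.

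The leading members of OSC were not those of the ovary. Member 1, a 29 nt sequence with U at position 1, had 1172 reads in myc-Piwi, 1666 in heterozygous Piwi, 4990 in mutant Piwi and 183 in myc-Aub, and was listed in no other library. Member 2, of 25 nt, had 1035 reads in myc-Piwi, 576 in heterozygous and 1410 in mutant Piwi, 291 and 195 in the corresponding total libraries, and 237 in myc-Aub. Both were higher in mutant than in heterozygous Piwi. Member 3 had 986 reads in myc-Piwi, 274 in myc-Aub and 126 in myc-AGO3, and member 4 had 941 in myc-Piwi and 199 in myc-Aub. Neither was listed in an ovary library, as was true of 4 of the 10 leading members.

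Member 5, of 28 nt, had 924 reads in myc-Piwi, 202 in heterozygous Piwi and 148 in myc-Aub. Member 8 had the same start and was 1 nt shorter, with 808 reads in myc-Piwi and 555 in myc-Aub. The shorter form thus had more of the myc-Aub reads and the longer form more of the myc-Piwi reads. Member 6 had 876 reads in myc-Piwi, 960 in myc-Aub, 316 in myc-AGO3 and 118 in mutant Piwi. Member 7 had 850 reads in myc-Piwi and 165 in mutant Piwi, and member 9 had 785 in myc-Piwi and was listed nowhere else. Member 10 had 775 reads in myc-Piwi, 695 in myc-Aub, 190 in heterozygous Piwi and 533 in mutant Piwi.

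By number, most members found in the ovary were listed with Piwi and few with Aub or AGO3, whose libraries also listed fewer sequences in all. Heterozygous Piwi listed 282 members by identical sequence (33.7%, 30.5 to 37.0) and 370 by the same start, and mutant Piwi listed 350 (41.9%, 38.5 to 45.3) and 448. Heterozygous total small RNA listed 155 members and mutant total 95. Heterozygous Aub and AGO3 listed 5 members each, mutant Aub 4, aub mutant AGO3 2 and Oregon R AGO3 1. Any ovary library listed 370 members (44.3%), and 368 of them were listed with Piwi in at least 1 genotype.

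**Figure D1:**
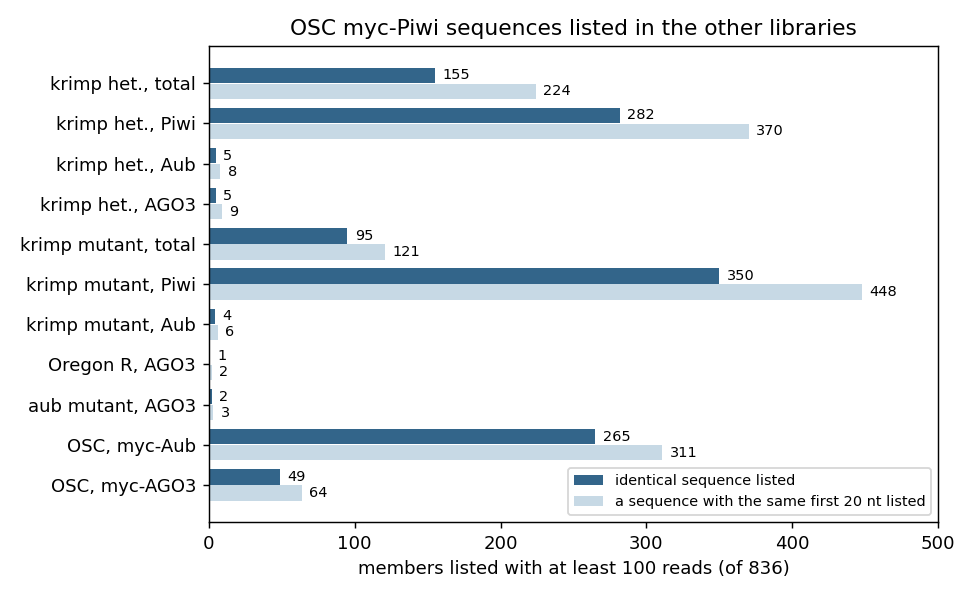
Number of the 836 members listed with at least 100 reads in each of the 11 other libraries, by identical sequence (dark bars) and by the same first 20 nt (light bars). The 2 ovary Piwi libraries list 282 and 350 members and the ovary Aub and AGO3 libraries 1 to 5, while OSC myc-Aub lists 265.

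Of the 836 members, 466 were not listed in any ovary library, and 366 were not listed even by their start. The set was named as one of follicle-cell piRNAs, and this could not be checked against cell markers, because the libraries hold small RNA sequences without gene names. It is therefore called by its source, OSC Piwi. Listing depended on depth and abundance. Of the 209 members with the most myc-Piwi reads, 85 were listed in heterozygous Piwi, and of the 209 with the fewest, 57 were. Among members that were listed, the myc-Piwi level was only weakly related to the ovary level. The Spearman correlation was 0.10 over 282 members for heterozygous Piwi and 0.10 over 350 for mutant Piwi. With myc-Aub of the same cell line it was 0.35 over 265 members, and between the 2 ovary Piwi libraries 0.87 over 264. The myc-Piwi reads are cut at 100 and have quartiles of 115 and 190, and this narrow range limits any correlation with them. These correlations are across sequences, some of which overlap, and are descriptions. Heterozygous Piwi also listed 17.0% of the 294 myc-Aub sequences and 4.62% of the 520 myc-AGO3 sequences that were not members. Heterozygous Aub listed 3.74% and 1.35% of them, heterozygous AGO3 3.74% and 1.54%, and mutant Aub 5.10% and 2.31%, against 0.598%, 0.598% and 0.478% of the members.

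The members made up a small part of ovary Piwi and a larger part of it in the mutant. Their identical sequences held 1.35% of heterozygous Piwi reads (1.34 to 1.35) and 3.40% of mutant Piwi reads (3.39 to 3.41). With all sequences of the same start the shares were 2.14% and 5.55%. Of the 100 most abundant sequences, 2 were members in heterozygous Piwi and 10 in mutant Piwi, and of the 1000 most abundant, 29 and 63. Member levels ran from 5.94 to 1409 RPM in heterozygous Piwi, with a median of 19.5, and from 8.72 to 1293 in mutant Piwi, with a median of 39.2.

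Most members were higher with Piwi in krimp mutant than in krimp heterozygous ovaries. Over the 264 members listed in both, the median log2 ratio of mutant over heterozygous was 1.61 (quartiles 1.29 and 1.86), which is 3.06-fold. More than 2-fold higher were 224 members (84.8%), against 47.8% of all 16896 sequences listed in both, and more than 2-fold lower were 6 (2.27%), against 14% of all. The 16632 other sequences had a median of 0.86 (quartiles −0.35 and 1.67). Those among them that were also listed in heterozygous Aub or AGO3, 815 in number, had a median of −0.32. In whole ovaries a change in the proportion of follicle cells and a change in piRNA per cell cannot be told apart, and the size of each ratio depends on the scale. The share of 2S rRNA, higher in mutant Piwi, moved with this result, and its part beyond the scaling was not tested. With all listed reads as the scale, 2S rRNA included, the median of the members was 1.32. When the ratios were centred on the median of all shared sequences, which is 0.89, the median of the members was 0.72, and 22.7% of them were more than 2-fold higher and 6.06% more than 2-fold lower.

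**Figure D2:**
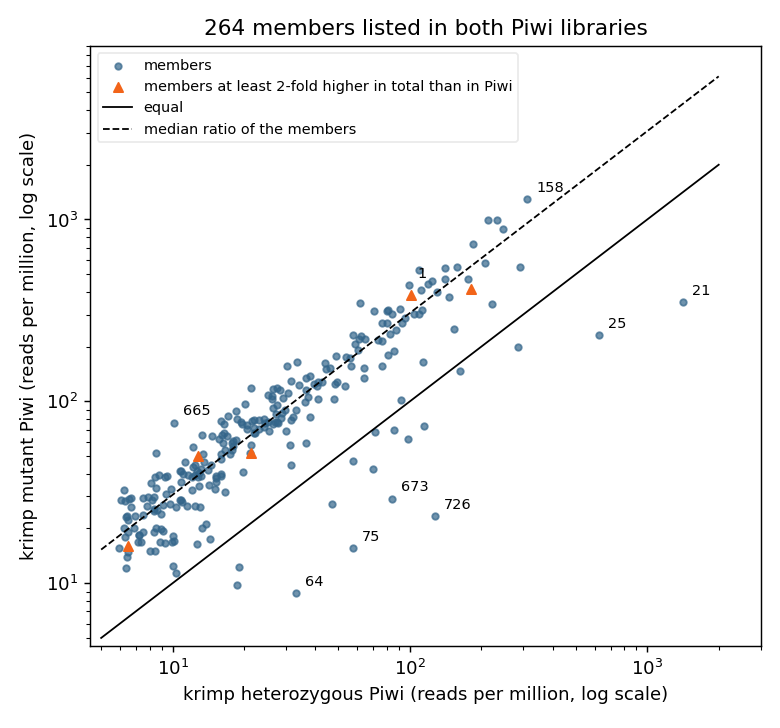
RPM in krimp heterozygous Piwi (x axis, log scale) and krimp mutant Piwi (y axis, log scale) for the 264 members listed in both, with some ranks. Each point is a member in 1 library per genotype, triangles mark members at least 2-fold higher in total small RNA than in Piwi, the solid line is equality and the dashed line the median ratio of 3.06. Most points follow the dashed line over the whole range of levels, and 17 lie below equality.

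The members kept this ratio at every level, while the other sequences did not. The levels are heterozygous Piwi reads, against which the ratio is taken. That choice alone favours lower ratios at higher levels, for members and others alike, and its part was not tested. Among sequences with 100 to 199 heterozygous Piwi reads, the median log2 ratio was 1.56 for 70 members and 1.45 for 6048 others. There the read minimum of the mutant library cut off low ratios, and the lowest of the others was −0.44. With 200 to 499 reads it was 1.66 for 92 members and 0.65 for 5842 others, and with 500 to 999 reads 1.58 for 41 members and −0.41 for 2659 others. With at least 1000 reads it was 1.55 for 61 members and −1.11 for 2083 others. Other sequences with at least 500 heterozygous Piwi reads were thus mostly lower in the mutant, but not all. With at least 1000 reads, 393 of the 2083 others (18.9%) were more than 2-fold higher, as were 45 of the 61 members (73.8%). The read minimum also cut off low ratios among sequences with 200 to 499 reads, where the lowest of the others was −1.71.

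**Figure D3:**
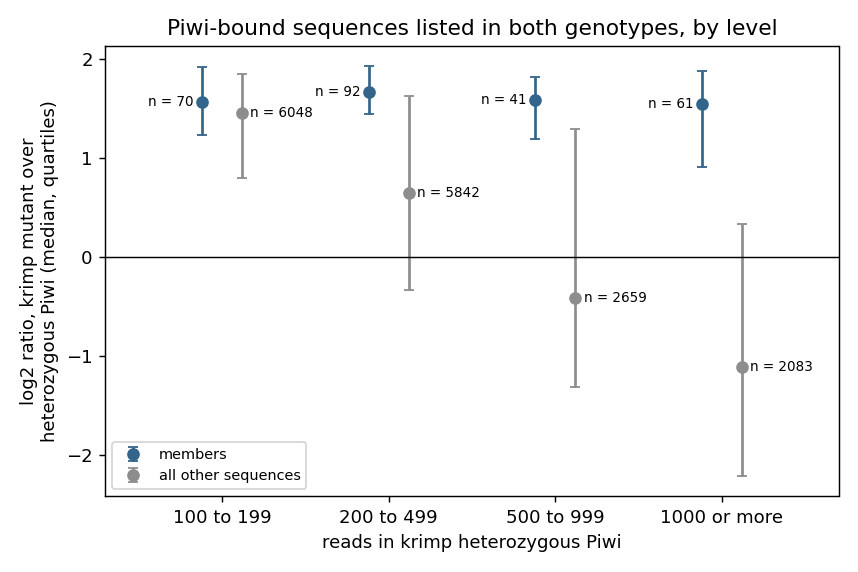
Median log2 ratio of krimp mutant over krimp heterozygous Piwi (y axis, bars from the lower to the upper quartile) for members and for all other sequences listed in both libraries, by heterozygous Piwi reads (x axis). The members stay between 1.55 and 1.66, while the other sequences go from 1.45 in the lowest class to −1.11 in the highest.

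Listing, which also covers sequences without a ratio, differed in the same direction. It rests on the same libraries and the same RPM scale, so it is not separate from the ratios. A sequence with an unchanged level and more than 145.4 heterozygous Piwi reads would be listed in mutant Piwi. Of the 233 members above that level 223 were listed there (95.7%, 92.2 to 97.9), against 41.9% (41.4 to 42.5) of 31318 other sequences and 53.7% of the 1422 others that were also in heterozygous Aub or AGO3. Of the 368 members in either Piwi library, 264 were in both, 18 in the heterozygous alone and 86 in the mutant alone. Of the 60495 others, 27.5% were in both, 51.6% in the heterozygous alone and 20.9% in the mutant alone. The most RPM that an unlisted sequence could have was lower in the heterozygous library. Any sequence listed in the mutant alone, member or not, was therefore higher there in RPM. Of the 86 such members, 51 were so by more than 2-fold. Of the 18 listed in the heterozygote alone, 10 were lower in the mutant and 3 by more than 2-fold. These counts past 2-fold were not made for the other sequences, so they only describe the members.

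The 5 members with the highest ratios had from 105 to 1037 heterozygous Piwi reads. Member 665, a 28 nt sequence with G at position 1, went from 170 reads in heterozygous to 875 in mutant Piwi, which is 7.56-fold in RPM (6.41 to 8.96). Member 789, with A at position 1, went from 143 to 594 reads (6.10-fold, 5.08 to 7.38), and member 423 from 1037 to 3969 (5.62-fold, 5.25 to 6.03). Member 53 went from 359 to 1363 reads and member 523 from 105 to 375. Member 158, the most abundant member in mutant Piwi, had 5257 heterozygous and 14826 mutant reads.

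A few members went the other way, and the most abundant member of the heterozygous ovary was among them. Member 21, of 26 nt, had 23734 reads in heterozygous Piwi and 4034 in mutant Piwi, 4.01-fold lower in RPM (3.87 to 4.14). It had 6317 and 103 reads in the 2 total libraries, 810 and 143 in heterozygous and mutant Aub, and 255 in heterozygous AGO3. Its longer form, member 25, of 28 nt with the same start, had 10546 and 2640 Piwi reads, 160 in heterozygous Aub and 125 in heterozygous AGO3. Both were joined with member 80 in a group whose sequences had 46865 heterozygous and 10427 mutant Piwi reads. Member 21 was thus lower in the mutant in Piwi, Aub and total alike, and it was among the 5 members listed with all 3 proteins in heterozygous ovaries.

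The other 4 members that were more than 2-fold lower were not in the Aub and AGO3 lists. Member 726 went from 2149 to 267 Piwi reads, 5.48-fold lower in RPM (4.82 to 6.25). Member 64 went from 560 to 101, member 75 from 967 to 178 and member 673 from 1416 to 335. Member 64 was joined with members 5 and 8, and the sequences of that group of 4 members had 952 heterozygous and 101 mutant Piwi reads. The reads of the group as a whole were lower in the mutant.

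Groups of overlapping sequences gave a similar picture. Of the 512 groups of joined sequences, 306 had reads in both Piwi libraries, with a median log2 ratio of 1.84, and 252 were more than 2-fold higher and 12 more than 2-fold lower in the mutant. The 5593 groups without a member had a median of 0.44, with 40.6% more than 2-fold higher and 26.4% more than 2-fold lower. In 52 of the 56 groups with ratios for at least 2 members, these lay on the same side of 0, where most members lie above it, and in 4 they lay on both sides. The second largest group, of 11 members, joined 98 sequences with 25338 heterozygous and 61343 mutant Piwi reads. A group of 10 members that includes member 7 had 7906 and 25416. The largest group, of 13 members with 2914 myc-Piwi reads, had no listed sequence in either ovary Piwi library.

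In total small RNA the members were fewer and not higher in the mutant. Over the 95 members listed in both total libraries the median log2 ratio of mutant over heterozygous was −0.51 (quartiles −0.93 and −0.16). More than 2-fold higher were 2 members, against 43% of all 4691 sequences listed in both, and more than 2-fold lower were 20 (21.1%), against 16.4% of all. The other sequences had a median of 0.66, made up of −0.41 for the 1881 that were listed with Piwi in an ovary and 1.37 for the 2715 that were not. Among sequences listed in both total libraries, the members thus had about the ratio of other Piwi-bound sequences. Of the members in either total library, 61.3% were in both, against 13.3% of the other sequences listed with Piwi. The ratio of those others therefore covers only the small part that stayed listed. Of 132 members with enough heterozygous reads to be listed in mutant total at an unchanged level, 92 were listed (69.7%, 61.1 to 77.4), against 17.6% of 10164 other sequences listed with Piwi.

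Among the 94 members listed in both libraries of both genotypes, 76 (80.9%) were higher in mutant Piwi and lower in mutant total. Another 14 were higher in both and 4 were lower in both. Of the 1482 other sequences listed in all 4 libraries, 60.8% were higher in mutant Piwi and lower in mutant total. The Piwi ratio exceeded the total ratio in all 94 members and in 88.9% of these others. The median difference was nearly the same, 2.17 on the log2 scale for the members and 2.15 for the others. The gap between Piwi and total was thus not particular to the members. Member 457 illustrates it, with 3113 and 8393 reads in heterozygous and mutant Piwi and 1342 and 367 in total.

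**Figure D4:**
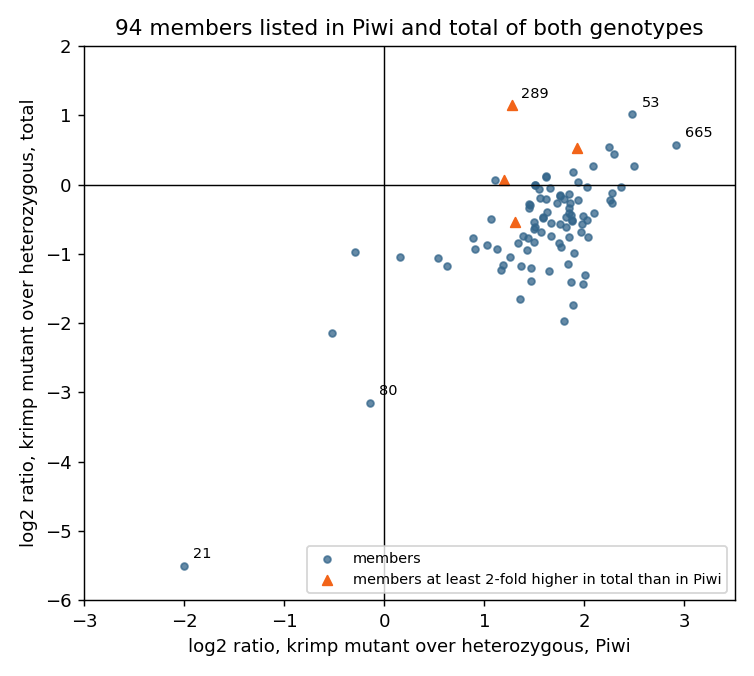
Log2 ratio of krimp mutant over krimp heterozygous in Piwi (x axis) and in total small RNA (y axis) for the 94 members listed in Piwi and total of both genotypes, each from 1 library per genotype. Most points lie right of 0 and below 0, member 21 lies far below and left, and triangles mark members at least 2-fold higher in total than in Piwi.

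The members listed with Aub or AGO3 were counted against those that could have been listed there. Of the 50 members abundant enough in heterozygous Piwi to be listed in Aub at an equal level, 4 were listed (8.0%, 2.22 to 19.2), against 12.6% (11 to 14.2) of 1735 other sequences. For AGO3 5 of 172 were listed (2.91%, 0.95 to 6.65), against 4.37% (4.07 to 4.69) of 16605 others. Both intervals of the members include the share of the others, so a lower share among the members was not detectable at this depth. For mutant Aub 4 of 169 members were listed (2.37%, 0.65 to 5.95), against 6.23% (5.57 to 6.94) of 4959 others. Those intervals overlap only slightly, and that of the members ends below the share of the others. They treat overlapping members as independent, and this lower share was not tested. Without 11 members that were richer in total small RNA than in Piwi, a choice made after seeing the data, these shares were lower. Then 1 of 165 was listed in mutant Aub (0.61%, 0.02 to 3.33) and 2 of 48 in heterozygous Aub (4.17%, 0.51 to 14.3). In heterozygous AGO3 it was 2 of 169 (1.18%, 0.14 to 4.21). The others were not filtered in this way, so these shares cannot be set against theirs. The trait used for the filter also goes with Aub and AGO3. Of other sequences in heterozygous Aub or AGO3, 48.9% were over 2-fold higher in total than in Piwi, against 3.11% of the rest.

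Most member reads in Aub and AGO3 came from a handful of sequences that were also richer in total small RNA than in Piwi. There were 11 such members with 10 different starts, at least 2-fold higher in heterozygous total than in heterozygous Piwi by the reads of their start. They held 82.9% of the reads with a member's start in heterozygous Aub, 95% in heterozygous AGO3, 99.7% in mutant Aub and 100% in Oregon R and aub mutant AGO3. In ovary Piwi they held 5.99% for the heterozygote and 7.58% for the mutant. Member 463, a 25 nt sequence with A at position 1, had 1478 reads in heterozygous Aub, 1175 in heterozygous AGO3 and 17503 in mutant Aub. Member 225 had 234, 303 and 7845 reads in the same libraries, and member 289, with A at position 1, had 462, 108 and 1050.

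Some of these sequences occurred at many lengths from a single start. The start of member 289 had 53288 reads in aub mutant AGO3, of which 49592 were 30 nt long, and 10551 in Oregon R AGO3. The start of member 463 had 47751 reads in mutant Aub, of which 27424 were 26 nt and 17503 were 25 nt long. Member 49, with A at position 1 and 352 myc-Piwi reads, was not listed in either ovary Piwi library. Its start had 92392 reads in heterozygous total, of which 60584 were 21 nt and 19683 were 22 nt long. The files give no gene or element for any of these sequences. Without the 11 members, the member share of Aub reads fell from 0.239% to 0.0739% in heterozygous and from 1.11% to 0.00596% in mutant ovaries. The median log2 ratio of the members in Piwi was 1.62 without them and 1.61 with them.

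Ovary sequences around the members lay mostly on the members' strand. A listed heterozygous Piwi sequence shared 18 nt with 548 members on the same strand and with 62 on the opposite strand, and 97.3% of those reads were on the same strand. In mutant Piwi the counts were 603 and 34 members, with 99.1% of reads on the same strand. The same-strand counts include the members' own identical sequences, which lie on that strand by definition. These held 227143 of 806629 same-strand reads in heterozygous Piwi and 390233 of 1441806 in mutant Piwi. The strand share was not computed for other Piwi sequences. Heterozygous AGO3 was more even, with 41 and 33 members and 64.6% of reads on the same strand. In myc-Piwi and myc-Aub no member had a listed sequence on the opposite strand, and in myc-AGO3 3 had.

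Few members had partners at the ping-pong distance. A heterozygous AGO3 sequence with a 10 nt 5′ overlap was listed for 23 members (2.75%), while overlaps of each length from 11 to 20 nt were found for 0.227% of members on average. The other heterozygous Piwi sequences had such a partner in 3.18% of cases, over 0.575%. Some of these 23 members shared a start or a partner. Member 351 had the most abundant partner, a 24 nt AGO3 sequence with 15877 reads, and its own Piwi reads were 991 in heterozygous and 2375 in mutant ovaries. Aub partners were listed for 2 members (0.239%) in heterozygous and 5 (0.598%) in mutant ovaries, against 0.713% and 0.924% of the other heterozygous Piwi sequences. Heterozygous Piwi itself held a 10 nt partner of 33 members (3.95%, with 0.933% on average at 11 to 20 nt). Mutant Piwi did so for 20 (2.39%, with 0.490%). Overlaps of 8, 9, 10 and 11 nt were found for 236, 102, 33 and 13 members in heterozygous Piwi. In mutant Piwi the counts were 192, 84, 20 and 9, so neither Piwi library had a peak at 10 nt. In heterozygous AGO3 they were 66, 38, 23 and 3, with the largest relative fall just past 10 nt. The part of random matches in these counts was not tested. Within myc-Piwi 1 member had a 10 nt partner, and in myc-Aub and myc-AGO3 none had.

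The other tagged proteins held part of the set in the same cell line. myc-Aub listed 265 members (31.7%, 28.6 to 35.0), which made up 47.4% of its sequences and 54.7% of its reads. myc-AGO3 listed 49 (5.86%, 4.37 to 7.68), which made up 8.61% of its sequences and 6.70% of its reads. Both listed 44 members, and neither listed 566, which held 57.5% of myc-Piwi reads. Of 410 members abundant enough to be listed in myc-Aub at an equal level, 175 were (42.7%, 37.8 to 47.6), and of 590 for myc-AGO3, 42 were (7.12%, 5.18 to 9.50). The members were therefore shared with myc-Aub far more than with myc-AGO3. The antibodies and 2S content (6.78% and 45.7% of listed reads) also differed, and their part was not tested.

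Among members listed in both, the median log2 ratio of myc-Aub over myc-Piwi was 0.45 over 265 members, with 52 more than 2-fold higher and 15 more than 2-fold lower. Every sequence listed in both is a member, so the background is the same count, 19.6% higher and 5.66% lower. Since myc-Aub lists nothing under 948 RPM, members that are low in myc-Piwi could be listed there only when they were higher. The 10 leading members were chosen by their myc-Piwi reads, against which the ratio is taken. That choice alone favours low ratios, so their values are descriptions. Of these 10, 7 were lower in myc-Aub by more than 2-fold. Members 1, 2, 3, 4 and 5 were 4.49-fold (3.84 to 5.28), 3.06-fold, 2.52-fold, 3.32-fold and 4.38-fold lower in RPM in myc-Aub than in myc-Piwi. Members 7 and 9, not listed in myc-Aub, were at least 6.02-fold and 5.56-fold lower. Member 8 was about equal (0.979-fold), and members 6 and 10 were 1.56-fold and 1.28-fold higher.

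**Figure D5:**
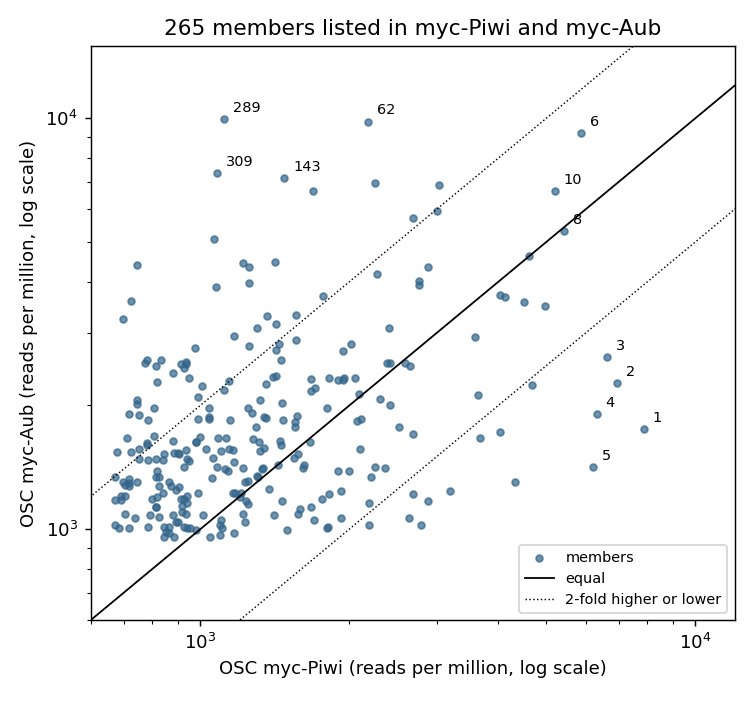
RPM in OSC myc-Piwi (x axis, log scale) and OSC myc-Aub (y axis, log scale) for the 265 members listed in both, with some ranks, from 1 library each. The solid line is equality and the dotted lines are 2-fold differences, with members 1 to 5 below the lower dotted line and members 62, 143, 289 and 309 above the upper one.

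The 5 members with the most myc-Aub reads were member 289 with 1039, member 62 with 1025, member 6 with 960, member 309 with 769 and member 143 with 748. Their myc-Piwi reads were 166, 325, 876, 161 and 220. Members 62 and 309 were both 24 nt long, shorter than most of the set. Member 309 was also listed in the ovary, with 112 reads in heterozygous and 302 in mutant Piwi, while member 62 was not.

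For myc-AGO3 the median log2 ratio over myc-Piwi was −0.11 over 49 members, with 3 more than 2-fold higher and 10 lower, and here too the background is the same count, 6.12% and 20.4%. The members with the most myc-AGO3 reads were member 49 with 449, member 731 with 368, member 6 with 316, member 81 with 313 and member 225 with 255. Members 49 and 225 belonged to the sequences that were richer in total small RNA than in Piwi. Member 731, a 26 nt sequence with 107 reads in myc-Piwi and 133 in myc-Aub, had 946 reads in heterozygous and 1976 in mutant Piwi.

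The members' 3′ ends were compared through sequences with the same start. Over 259 starts shared with myc-Aub, the read-weighted length was shorter there than in myc-Piwi for 53, longer for 15 and equal for 191, with a mean shift of −0.21 nt. The shift was 0.00 nt over 317 starts in heterozygous Piwi, with 95 shorter, 104 longer and 118 equal. In mutant Piwi it was 0.02 nt over 384 starts, with 133 shorter, 142 longer and 109 equal. In heterozygous Aub and AGO3 it was −1.12 nt over 7 starts and −1.40 nt over 8, but 1.84 nt over 2 starts in Oregon R AGO3, 1.77 nt over 3 in aub mutant AGO3 and 0.01 nt over 46 in myc-AGO3. In total small RNA it was −0.47 nt over 187 starts in heterozygous and −0.34 nt over 105 in mutant ovaries, so shorter forms were not seen with Aub alone. The members listed in myc-Aub had a mean length of 26.2 nt, and the others 26.7 nt. Only on average did the 3′ ends of the members thus match between OSC and ovary Piwi. Most single starts had a different read-weighted length there, in either direction.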

How the data were processed

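The authors deposited, for each of 12 libraries, distinct small RNA sequences of 20 to 30 nt with their read counts, whole numbers of at least 100 and not normalized. Per the labels' protocols, RNA was taken from antibody purifications of Piwi-family proteins and cut by size from denaturing gels. Per the submitters' processing notes the build was dm3. The aligner, trimmer and filters were not given in the sources used here, and no genome was used.

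2S rRNA was taken as the most abundant 30 nt sequence of heterozygous Aub. Counts were scaled to RPM, reads per 1000000 listed 23 to 29 nt reads without it. A difference was called past 2-fold, with 1 library per group and no test. Sequences of ovary Piwi and OSC were joined by shared runs of 18 nt on the same strand. The base after a 3′ end was read from listed sequences holding the last 15 nt of a sequence. Fold intervals are exact conditional binomial intervals.

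Members named were the 10 with the most myc-Piwi reads, the 5 highest and 5 lowest Piwi ratios, and the 5 with the most reads in heterozygous Aub, heterozygous AGO3, mutant Aub, myc-Aub and myc-AGO3, starts shared being told once. Members 80, 158, 351 and 457 were chosen after their values were seen. The members, lists and comparisons were chosen with earlier results of these data known. No mRNA was measured, so genotypes and knockdown rest on the labels. On simulated data, the ratio was tested with a planted difference among sequences with at least 500 reads. The 10 nt overlap was tested on random sequences with planted partners. The other measures, and ratios at lower reads, were not tested in this way. Python 3.11.15, scipy 1.17.1, numpy 2.4.6 and matplotlib 3.10.9 were used.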

Additional observations from a re-analysis of the deposited data

How the results depend on the processing

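No paired analysis was possible because each group had 1 library. No difference past 2-fold reversed. The median Aub over Piwi ratio of heterozygous ovaries, −0.02 over 5 members, was 1.998 with unlisted sequences set to 99 reads and −1.47 when scaled to all listed reads, so it gives no direction. Matching by the same first 20 nt raised the share of members listed to 44.3% in heterozygous and 53.6% in mutant Piwi, 26.8% and 14.5% in the total libraries and 37.2% in myc-Aub. With at least 200 myc-Piwi reads the shares were 39.8%, 48.9% and 24.2% in heterozygous Piwi, mutant Piwi and heterozygous total, 58.1% in myc-Aub and 13.4% in myc-AGO3. The read shares by the same start were 2.14% and 5.55% in Piwi, 1.34% and 1.32% in total (heterozygous and mutant) and 62.1% in myc-Aub. As shares of all listed reads they were 1.21%, 2.48%, 0.357%, 0.208% and 49.3% in the same order, and without the 11 members richer in total than in Piwi, an alternative chosen after seeing the data, 1.32%, 3.31%, 0.513%, 0.243% and 52.9%. That last alternative left 0.121% of members listed in mutant Aub. Without the members whose start was mostly 20 to 22 nt long the total shares were 0.630% and 0.379%. The median Piwi ratio of the members was 1.32 (74.2% higher) when scaled to all listed reads, 0.72 (22.7% higher, 6.06% lower) when centred on all shared sequences, 1.503 (74.7% higher) with unlisted sequences set to 99 reads and 1.71 when summed by start. The median total ratio was −0.68 (0.00% higher) when scaled to all listed reads, −1.14 (0.00% higher, 61.1% lower) when centred on all shared sequences and −0.79 (0.00% higher, 37.9% lower) when scaled to 20 to 22 nt reads, chosen after seeing the data. The myc-AGO3 ratio was −1.70 when scaled to all listed reads. With an equal number of 3124 partner sequences per library, 0.478% of members had a 10 nt partner in heterozygous AGO3 and 0.00% in heterozygous and mutant Piwi, against 2.75%, 3.95% and 2.39% with all partner sequences. The cause of these shifts was not tested. The other 106 values moved by less than their counting intervals or spread. The read minimum limits all shares of members listed, most of all in Oregon R AGO3, the OSC libraries and aub mutant AGO3.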
